A study of Mus musculus with 36 samples.

Results

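The genes *Myc*, *Mycn*, *E2f1*, *E2f3*, *E2f8*, *Foxm1*, *Mybl2*, *Meis1*, *Meis2* and *Sox11* encode transcription factors that control growth and cell division. They were taken by gene symbol, together with all their probe sets, from an array of the developing and mature mouse heart. The 10 genes were read by 29 probe sets, out of 20701 genes with an identifier and 45101 probe sets on the array. A probe set is a group of short probes that reads 1 transcript region, and each gene was described by the probe set with the highest mean over all arrays (its leading probe set). Of the 29 probe sets, 20 had a mean log2 value above 5 in at least 1 stage, the limit that the study used to call a gene expressed. All 10 leading probe sets passed that limit.

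Whole hearts of OF1 mice, an outbred strain, were profiled at 12 stages with 3 arrays each, 36 arrays in all. Embryonic hearts were taken on each of 10 days, E10.5 being the first and E19.5 the last, and adult hearts at 10 weeks (young adult) and at an old age given as 14 months by the sample labels and 10 months by the study's methods. No mutation or treatment is named for any group. At E10.5 and E11.5 all 3 arrays were of mixed sex, whereas from E12.5 onward each stage had 1 female, 1 male and 1 mixed array, so the spread between arrays also holds the sexes. The values are log2 intensities normalized by the authors, and a difference of 1 is a 2-fold change. Because whole hearts were measured, fewer cells of a type and less RNA per cell cannot be told apart.

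The arrays carried the signature of heart. Of 8 cardiomyocyte markers 7 had a probe set under their symbol, and all 7 were above 5 at every stage, with a mean level between 11.40 in young adult and 12.30 at E10.5. None of 4 liver markers was above 5 in the earliest and latest embryonic stages or in either adult group, although the extraction protocol in the labels names liver. The mean of 5 erythroid markers stood at 9.54 on E10.5, at 3.85 on E19.5 and at 3.88 in young adult, and that of 5 leukocyte markers was 3.51, 4.69 and 6.46 in the same groups and 7.28 in old adult. Hybridization controls, bacterial RNA added to each sample, averaged 9.65 on the E10.5 arrays, 10.93 on the E19.5 arrays, 12.0 in young adult and 11.16 in old adult, so their level moved with stage. At E17.5 the array of mixed sex was the lowest of its stage for 7 of the 10 genes and the highest for 2. Its position over all probe sets was not counted, so these counts do not show whether the array as a whole stood apart. Its control level was 11.82 against 10.70 and 11.41 on the other arrays of that day. The part of these levels in the results was not tested beyond the alternatives named beside them.

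As background, MYC and MYCN pair with MAX to raise ribosome production, metabolism and cell growth, and MYCN is known for its role in growth of the embryonic ventricular wall. E2F1 and E2F3 activate genes of DNA replication once they are released from pocket proteins such as RB1, and E2F8 is an atypical E2F that represses the same kind of gene. MYBL2, bound to the MuvB complex, and FOXM1 act later in the cell cycle on genes of mitosis. MEIS1 and MEIS2 are TALE homeodomain partners of PBX and HOX proteins, and MEIS1 is known for restraining the cell cycle of cardiomyocytes after birth. SOX11 belongs with SOX4 and SOX12 to the SOXC group, which takes part in outflow tract formation.

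Promoter sequence was looked up to see which of these genes carry the elements that the same factors read. RefSeq windows of assembly GRCm38.p6, running from 250 bases before to 50 bases after a transcript start, were given for 8 of the 10 genes, in 9 windows. *Myc* and *Foxm1* had no entry. Both strands were searched for exact letters of an E2F element (TTTCCCGC, TTTCGCGC, TTTGCCGC or TTTGGCGC), the cell cycle element CHR (TTTGAA), the E-box of MYC (CACGTG) and a MEIS element (TGACAG). The E2F element was found in the windows of *Mycn* and *E2f3* and in 2.26% of all 32851 windows of that length. The CHR element was present for *Mycn*, *E2f3*, *E2f8* and *Sox11* and in 17.9% of all windows. The E-box occurred in 1 of the 2 windows of *E2f3* (7.15% of all windows), at another start than the E2F element, and the MEIS element in that of *Mycn* (19.2%). None of the letters searched occurred in the windows of *E2f1*, *Mybl2*, *Meis1* or *Meis2*. These windows, like that of *E2f8*, lay wholly inside the gene positions given below. The sequence at the outer end of those genes was therefore not searched, and no lack of elements can be read from it. A match describes the letters only.

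The E2F element was matched only for *Mycn* and *E2f3*. *E2f8*, *Sox11* and *Meis2*, which like them had a large embryonic excess, showed none in their windows. Whether element and excess go together was not tested. The upstream stretches that hold the E2F elements are printed with E2F and CHR elements in capitals. The gene's strand (minus in both) is read 5′ to 3′. The first lies at chr12:12941977-12942036, positions -200 to -141 from the start of *Mycn*, and holds 3 matches of the E2F element, at -183, -179 and -168, of which the first and the second overlap. The other lies at chr13:29986066-29986105, positions -42 to -3 from a start of *E2f3*, and holds the CHR element at -23 and the E2F element, read on the opposite strand, at -11.
Mycn: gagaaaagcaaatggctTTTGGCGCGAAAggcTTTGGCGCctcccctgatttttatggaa
E2f3: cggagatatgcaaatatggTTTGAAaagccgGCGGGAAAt

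The first comparison asked how far the regulators of the embryonic heart differ from those of the mature heart. At E10.5, 9 of the 10 genes were higher than in young adult and none was lower (limma, Benjamini-Hochberg adjusted p under 0.05 over all probe sets), and *Foxm1* was not called. Over all 45101 probe sets, 27.1% were called higher and 35.9% lower in that comparison. The largest differences were those of *E2f8*, *Sox11*, *E2f3*, *Mycn* and *Meis2*. These 5 also passed the study's limits (adjusted p under 1e-05, more than 4-fold and a stage mean above 5), which 4.43% of all probe sets passed upward. With the hybridization control level as a term in the fit 3 genes passed them, and *Mycn* was not called. A second probe set of *Meis1* made it 6 genes with any probe set counted. The median log2 difference of the 10 leading probe sets was 2.45, against -0.19 for all probe sets. With each array centred on the expressed probe sets, the median of all probe sets moved to -0.72 and the calls to 16.4% higher and 63.8% lower. Under that centring 7 of the 10 genes were called higher and 1, *Foxm1*, lower, and *Myc* and *E2f1* were not called. The young adult means of *Myc*, *E2f3*, *E2f8*, *Mybl2* and *Sox11* were below 5, so no fold is given against them.

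At E19.5, the last day before birth, 7 genes were higher than in young adult and none was lower, beside 15.5% of all probe sets called higher and 13.6% lower. With the centring above, these shares were 10.8% and 22.2%. *E2f3* and *E2f8* passed the study's limits, as did 0.818% of all probe sets upward. Without the first E19.5 array or the first young adult array, or under centring, 1 gene passed them, and with the control level as a term or on only the arrays compared 0 did. Between E10.5 and E19.5, 7 genes were higher at E10.5 and none was lower, with 21.8% and 23.7% of all probe sets called in these directions (14.6% and 55.6% after centring). *Mycn* and *Sox11* passed the study's limits there, beside 1.48% of all probe sets upward. That count was 1 under centring, a further quantile normalization or the control level as a term, and 0 on only the arrays compared. The comparisons share the E10.5, E19.5 or young adult arrays, so their calls are not independent of each other.

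**Figure D1:**
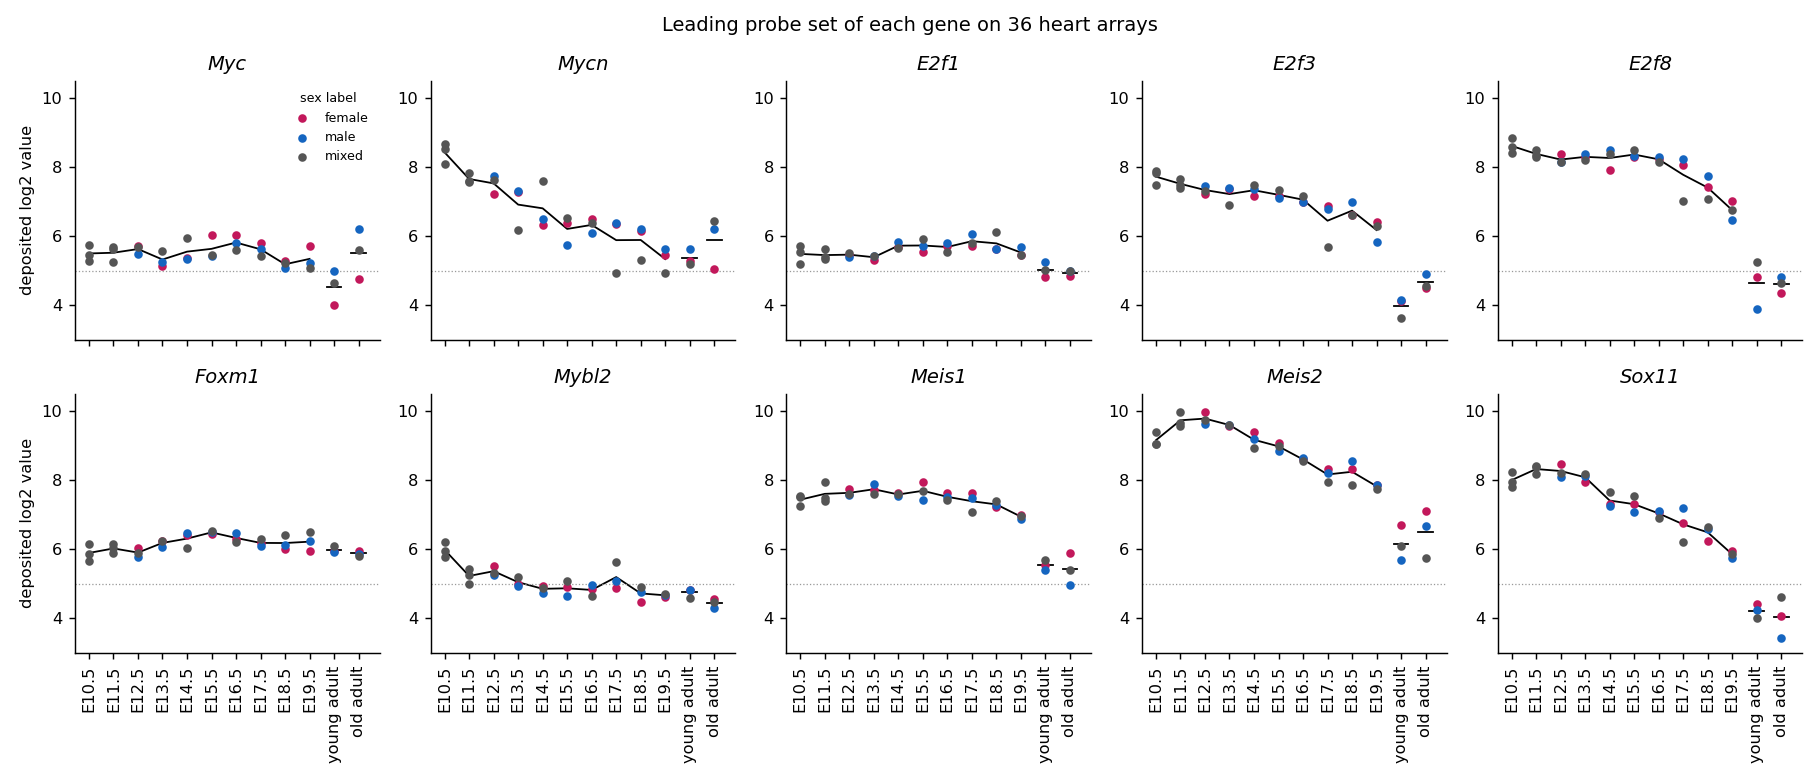
Deposited log2 value of the leading probe set (y axis) on each of the 36 arrays by stage (x axis), 1 panel per gene, with arrays coloured by sex label. The black line joins embryonic stage means, short bars are adult means and the dotted line marks the level of 5. *Mycn* starts at 8.43 and reaches 5.34 by E19.5, *E2f8* stays between 8.22 and 8.62 up to E16.5, and *Foxm1* stays between 5.88 and 6.49 throughout.

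The MYC genes followed separate courses. *Mycn* (chr12:12936093-12941836, gene positions are those of GRCm38.p6) measured 8.68, 8.52 and 8.09 on the E10.5 arrays, 5.47, 5.62 and 4.92 at E19.5, and 5.63, 5.18 and 5.27 in young adult. The E10.5 arrays lay above all others of the comparison, while the E19.5 and young adult arrays overlapped. The log2 difference between E10.5 and young adult was 3.07 ± 0.37 (SE, n = 3 per stage, limma adjusted p = 2.32e-08), an 8.40-fold excess, and 3.09 ± 0.37 between E10.5 and E19.5 (adjusted p = 6.23e-08). From E19.5 to young adult the difference was -0.02 (95% interval -0.78 to 0.73, adjusted p = 0.971). On the days between, beginning with E11.5, its stage means were 7.66, 7.53, 6.92, 6.81, 6.21, 6.33, 5.89 and 5.89. No single daily step of the leading probe set of *Mycn* was called.

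*Mycn* was also the gene whose value ran most closely with the hybridization controls within stages (r = -0.66 over 36 arrays, as a description). With that control level as a term, its excess at E10.5 over young adult was 0.81 (adjusted p = 0.337) and its difference at E19.5 became -1.05 (adjusted p = 0.0225). The slope of this term comes from differences within stages. The control level was 9.65 at E10.5 and 12.0 in young adult, a gap wider than within any stage. The E10.5 value therefore reaches beyond the range that set the slope. This does not hold for the E19.5 value. There the level was 10.93 against 12.0, while the E17.5 arrays alone ran from 10.70 to 11.82. The probe sets of *Mycn* did not run together either. The second one measured 5.01, 4.57 and 5.06 at E10.5 and 5.76, 5.61 and 5.72 in young adult, with no overlap, and was lower at E10.5 by a log2 difference of -0.82 ± 0.16 (adjusted p = 5.08e-05). Its correlation with the leading probe set over the 12 stage means was -0.94. The remaining one stayed below 5 at every stage and differed by 0.13 (adjusted p = 0.625).

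*Myc* (chr15:61985341-61990361) had 1 probe set and a low, level course through the embryo. Its arrays read 5.28, 5.76 and 5.46 on the E10.5 arrays, 5.71, 5.24 and 5.09 on those of E19.5 and 4.98, 4.64 and 4.01 in young adult. Both embryonic groups lay above the young adult arrays without overlap. The excess over young adult was 0.96 ± 0.26 at E10.5 (adjusted p = 0.00212) and 0.80 ± 0.26 at E19.5 (adjusted p = 0.0183). E10.5 and E19.5 differed by 0.16 (95% interval -0.37 to 0.68, adjusted p = 0.627), and the highest stage mean, 5.82, was that of E16.5. After the centring above the excess at E10.5 was 0.43 (adjusted p = 0.101), and with the control level as a term 0.67 (adjusted p = 0.39). The call at E19.5 was lost without the first E19.5 array (0.62, adjusted p = 0.119), without the third young adult array (0.53, adjusted p = 0.151) and with the control level as a term (0.67, adjusted p = 0.12).

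Of 10 other MYC network genes, which compete for MAX or resemble it, 3 were higher and 2 lower at E10.5 than in young adult (median 0.20), beside the 27.1% and 35.9% of all probe sets. *Mga*, a MAX partner, was higher by 1.60 ± 0.20 and *Max* itself by 0.72 ± 0.19. *Mxd4*, a MYC antagonist, was lower, with a difference of -1.38 ± 0.16. *Mxd3*, named after its value was seen, was higher by 0.62 ± 0.23 (limma adjusted p = 0.0223), so this group had no single direction. Genes that MYC is known to activate in ribosome building and growth behaved more uniformly. Of 16, 15 were higher at E10.5 than in young adult (median 1.83), and 15 were higher at E10.5 than at E19.5 (median 1.51). At E19.5 only 6 were higher than in young adult and 1, *Odc1* of polyamine synthesis, was lower (median 0.39). In these comparisons, in the order given, 27.1%, 21.8% and 15.5% of all probe sets were called higher. *Cdk4*, a G1 kinase, had the largest difference at E10.5 over young adult, 3.26 ± 0.20, followed by the nucleolar genes *Nop58* (2.50 ± 0.14) and *Npm1* (2.47 ± 0.20).

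Among the E2F genes the activator *E2f3* and the repressor *E2f8* shared a course, high through most of gestation and low in the adult. *E2f3* (chr13:29906575-29986064) read 7.88, 7.47 and 7.82 on the E10.5 arrays, 6.41, 5.84 and 6.28 on those of E19.5 and 4.15, 3.63 and 4.12 in young adult. The 3 groups did not overlap. Its excess over young adult was 3.76 ± 0.22 at E10.5 (adjusted p = 1.82e-15) and 2.21 ± 0.22 at E19.5 (adjusted p = 1.71e-09). Between E10.5 and E19.5 the difference was 1.55 ± 0.22 (adjusted p = 9.7e-07). Its other probe set stayed below 5 and differed by 0.15 (adjusted p = 0.403).

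*E2f8* (chr7:48866429-48882073) read 8.58, 8.43 and 8.85 on the E10.5 arrays, 7.03, 6.48 and 6.76 on those of E19.5 and 3.88, 5.26 and 4.81 in young adult. Again no group overlapped another. Its excess over young adult was 3.97 ± 0.26 at E10.5 (adjusted p = 3.02e-14) and 2.10 ± 0.26 at E19.5 (adjusted p = 1.13e-07). Between E10.5 and E19.5 the difference was 1.86 ± 0.26 (adjusted p = 7.51e-07). Stage means lay between 8.22 and 8.62 from E10.5 to E16.5, then at 7.78, 7.41 and 6.76 on the next days. Over the 12 stage means *E2f3* and *E2f8* correlated at r = 0.98. This course was not particular to the E2F genes. Both also correlated with *Meis1*, *Meis2* and *Sox11*, at r between 0.941 and 0.983. With *Myc*, *Mycn*, *E2f1*, *Foxm1* and *Mybl2*, r was at most 0.751.

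*E2f1* (chr2:154559400-154569892) differed much less. Its arrays read 5.20, 5.55 and 5.71 on the E10.5 arrays, 5.45, 5.69 and 5.45 on those of E19.5 and 5.25, 5.02 and 4.82 in young adult. The E10.5 and young adult arrays overlapped, the E19.5 and young adult arrays did not. The excess over young adult was 0.46 ± 0.15 at E10.5 (adjusted p = 0.00813) and 0.50 ± 0.15 at E19.5 (adjusted p = 0.00986). Both calls were lost under other scalings, and after centring the E10.5 difference was -0.068 (adjusted p = 0.733). They were also lost on the arrays of the groups compared alone (adjusted p = 0.0612 and 0.0915), without the third young adult array, and without the third E10.5 array or the second E19.5 array. E10.5 and E19.5 differed by -0.04 (95% interval -0.34 to 0.26). The highest stage mean was 5.86 at E17.5.

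Of 10 other E2F, DP and pocket protein genes, 4 were higher and 2 lower at E10.5 than in young adult (median 0.33), beside 27.1% and 35.9% of all probe sets. *E2f7*, the other atypical repressor, was higher by 3.56 ± 0.21, *Rbl1*, the pocket protein p107, by 3.43 ± 0.28, and *Tfdp1*, the common E2F partner, by 3.02 ± 0.23. *E2f5*, which acts as a repressor, was lower, with a difference of -1.06 ± 0.30. Genes of DNA replication known as E2F targets were higher nearly throughout. Of 18, 17 were higher at E10.5 than in young adult (median 3.16), 13 at E19.5 (median 0.95), and all 18 were higher at E10.5 than at E19.5 (median 1.88). The shares of all probe sets called higher were 27.1%, 15.5% and 21.8% in that order. The largest differences at E10.5 over young adult were those of *Rrm2*, a subunit of ribonucleotide reductase (5.01 ± 0.24), the licensing factor *Cdt1* (3.75 ± 0.14) and the helicase subunit *Mcm3* (3.66 ± 0.26). *Ccne1*, cyclin E1, was not called (0.42, adjusted p = 0.0549).

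**Figure D2:**
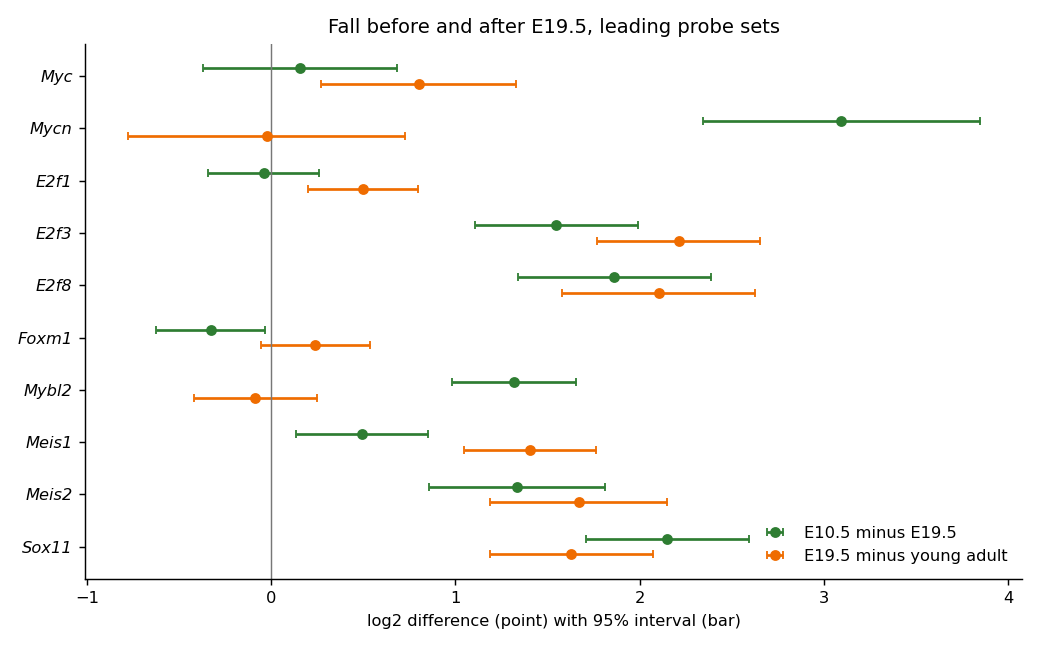
Log2 difference of the leading probe set of each gene (x axis; genes on the y axis) between E10.5 and E19.5 (green) and between E19.5 and young adult (orange), with 95% intervals from the limma fit. *Mycn* and *Mybl2* show their difference before E19.5 (3.09 and 1.32), *Myc* and *E2f1* after it (0.80 and 0.50), and *E2f3*, *E2f8*, *Meis1*, *Meis2* and *Sox11* on both sides.

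Of the factors of the late cell cycle, *Mybl2* was high at the earliest stage. The leading probe set of *Foxm1* was not called between E10.5, E19.5 and young adult. *Mybl2* (chr2:163054327-163084688) read 5.96, 6.22 and 5.76 at E10.5, 5.25, 5.42 and 4.99 a day later, 4.61, 4.68 and 4.70 at E19.5, and 4.82, 4.59 and 4.83 in young adult. The E10.5 arrays lay above every array of the other 3 groups. The excess at E10.5 was 1.23 ± 0.16 over young adult (adjusted p = 1.54e-07) and 1.32 ± 0.16 over E19.5 (adjusted p = 1.36e-07), while E19.5 and young adult differed by -0.08 (95% interval -0.42 to 0.25, adjusted p = 0.75). The second probe set of *Mybl2* had no stage mean above 3.09 and was not called in these comparisons.

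Daily steps were counted by the leading probe sets only, so calls of other probe sets are not covered. The step from E10.5 to E11.5 was the only one at which any of the 10 genes was called in this way. That gene was *Mybl2*, with a difference of -0.76 ± 0.16 (limma adjusted p = 0.0113). Over all probe sets, 2.53% were called at that step. The call was lost under repeated quantile normalization (adjusted p = 0.064), under centring (adjusted p = 0.0692) and without the first or second E10.5 array or the third E11.5 array (adjusted p between 0.0635 and 0.163). At the following steps none of the 10 leading probe sets was called, beside 0.0976%, 1.25%, 0.0599%, 0.0377%, 0.0111%, 0.0133%, 0% and 1.33% of all probe sets. Without adjustment, 3 of the genes had p under 0.05 at the first step (*Mycn*, *Mybl2* and *Meis2*), beside 6998 of all 45101 probe sets, and 3 at the last (*E2f3*, *E2f8* and *Sox11*), beside 5357. At the steps to E14.5, E17.5 and E18.5 such genes numbered 2, 2 and 1, beside 1577, 4394 and 2506 probe sets.

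*Foxm1* (chr6:128362994-128375886) read 5.85, 5.67 and 6.15 on the E10.5 arrays, 5.93, 6.23 and 6.49 on those of E19.5 and 5.90, 6.09 and 5.94 in young adult. These groups overlapped. E10.5 and young adult differed by -0.09 (95% interval -0.38 to 0.21, adjusted p = 0.601), and the 12 stage means spanned 0.61. The highest was 6.49 at E15.5 and the lowest 5.88 in old adult. The other probe set of *Foxm1* above the level of 5 was higher at E10.5 by 0.33 ± 0.14 (adjusted p = 0.0497) and at E19.5 by 0.38 ± 0.14 (adjusted p = 0.0483). Its stage mean was 5.84 at E10.5 and 6.41 at E15.5, then 5.51 in young adult and 5.41 in old adult. The difference between E15.5 and the adult stages was not tested for either probe set. Under centring the leading probe set was lower at E10.5 (-0.61, adjusted p = 0.00523), and with the control level as a term it was 0.60 (adjusted p = 0.0749), so no direction is given for *Foxm1*. E10.5 and E19.5 differed by -0.33 (adjusted p = 0.0638), and this was called under centring (-0.67, adjusted p = 0.00429) and without the third E10.5 array or the first E19.5 array (adjusted p = 0.0188 and 0.0138). Within stages its value ran with the hybridization controls (r = 0.61 over 36 arrays).

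The known target genes of MYBL2 and FOXM1 in mitosis were all higher at E10.5 than in young adult. They numbered 16, with a median difference of 3.67. At E19.5 14 of the 16 were still higher than in young adult (median 2.27), and 15 were higher at E10.5 than at E19.5 (median 1.80). Beside these 3 counts, 27.1%, 15.5% and 21.8% of all probe sets were called higher. *Bub1*, a spindle checkpoint kinase, was higher at E10.5 than in young adult by 5.37 ± 0.20, *Top2a*, topoisomerase II alpha, by 4.99 ± 0.23, and *Cdk1*, the mitotic kinase, by 4.74 ± 0.22. Among 7 other MYB and MuvB genes, 5 were higher and 2 lower at E10.5 (median 0.98), beside 27.1% and 35.9% of all probe sets. The MuvB genes *Lin9* (2.72 ± 0.19), *Lin54* (2.00 ± 0.24) and *Rbbp4* (1.99 ± 0.11) were higher, and *Lin52* was lower (-0.49 ± 0.14).

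**Figure D3:**
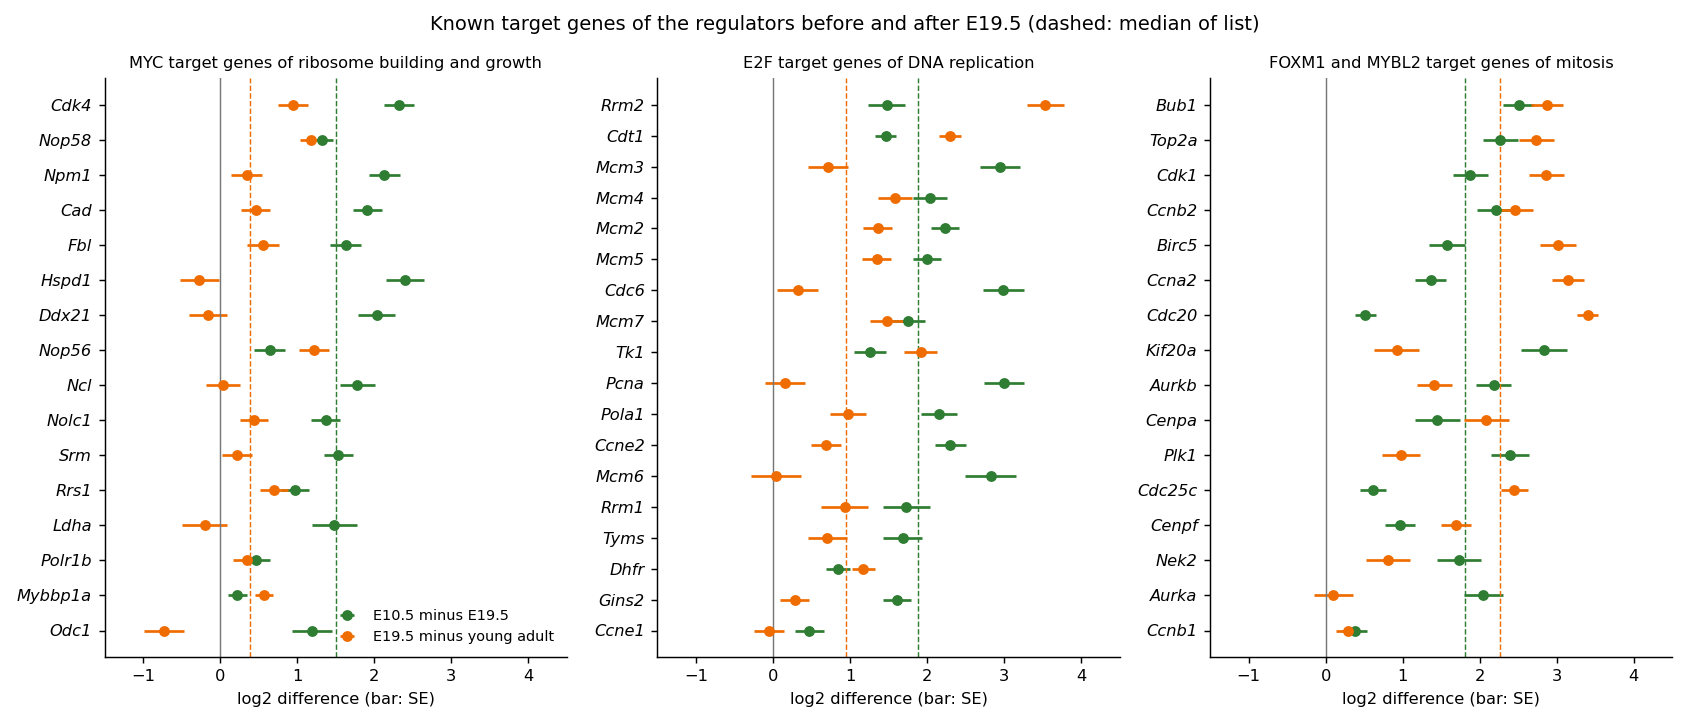
Log2 difference (x axis; bars are SE) of each gene of 3 lists of known targets (y axis) between E10.5 and E19.5 (green) and between E19.5 and young adult (orange), with dashed lines at the list medians. The medians before and after E19.5 were 1.51 and 0.39 for MYC targets, 1.88 and 0.95 for E2F targets, and 1.80 and 2.27 for mitosis targets.

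The homeodomain genes *Meis1* and *Meis2* were higher at both embryonic ends than in the adult. *Meis2* (chr2:115861264-116067537) read 9.04, 9.04 and 9.41 on the E10.5 arrays, 7.87, 7.86 and 7.75 on those of E19.5 and 5.68, 6.10 and 6.70 in young adult. The groups did not overlap. Its excess over young adult was 3.01 ± 0.23 at E10.5 (adjusted p = 2.43e-12), or 8.03-fold, and 1.67 ± 0.23 at E19.5 (adjusted p = 1.36e-06), and E10.5 exceeded E19.5 by 1.34 ± 0.23 (adjusted p = 2.94e-05). The highest stage mean, 9.79, was reached at E12.5. All 4 probe sets of *Meis2* were called in the same direction in these comparisons, and the other 3 correlated with the leading one at r between 0.98 and 0.99 over the stage means.

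*Meis1* (chr11:18880428-19019651) read 7.50, 7.26 and 7.54 on the E10.5 arrays, 6.98, 6.88 and 6.97 on those of E19.5 and 5.39, 5.70 and 5.53 in young adult. Its excess over young adult was 1.90 ± 0.18 at E10.5 (adjusted p = 1.05e-10) and 1.40 ± 0.18 at E19.5 (adjusted p = 1.73e-07), with the highest stage mean, 7.74, at E13.5. E10.5 exceeded E19.5 by 0.49 ± 0.18 (adjusted p = 0.023), a call lost under repeated quantile normalization (0.09, adjusted p = 0.732), centring (0.15, adjusted p = 0.475) and the control level as a term (adjusted p = 0.239). The call was also lost without array 1 or array 3 of E10.5 or the second E19.5 array (adjusted p between 0.0649 and 0.0723). The second probe set declined from the start. It read 7.90, 8.02 and 7.93 on the E10.5 arrays, 6.04, 5.78 and 6.14 on those of E19.5 and 4.57, 4.77 and 4.85 in young adult. Its differences were 3.22 ± 0.17 between E10.5 and young adult (adjusted p = 1.86e-16) and 1.96 ± 0.17 between E10.5 and E19.5 (adjusted p = 1.06e-10). The third stayed below 5 and was not called.

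Of 9 other TALE homeobox genes, 5 were higher and 2 lower at E10.5 than in young adult (median 1.33). The MEIS partner *Pbx2* was higher by 2.72 ± 0.16 and the repressor *Tgif2* by 2.57 ± 0.13. *Meis3* was lower (-0.63 ± 0.14). Of 7 CDK inhibitors, brakes of the cell cycle, 3 were higher and 3 lower at E10.5 than in young adult (median -0.37). Both TALE and CDK inhibitor counts stand beside the 27.1% higher and 35.9% lower of all probe sets. Among the 5 with a stage mean above 5, 3 were higher and 1 lower, and their median was 1.41. *Cdkn1c* was higher by 4.19 ± 0.20, *Cdkn2d* by 2.04 ± 0.20 and *Cdkn1b* by 1.41 ± 0.21. *Cdkn2a* was lower (-0.83 ± 0.21), though its stage means were all below 5.

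*Sox11* (chr12:27334268-27342718) read 7.96, 7.82 and 8.23 on the E10.5 arrays, 5.95, 5.74 and 5.87 on those of E19.5 and 4.24, 4.01 and 4.41 in young adult, and the groups did not overlap. Its excess over young adult was 3.78 ± 0.22 at E10.5 (adjusted p = 1.76e-15) and 1.63 ± 0.22 at E19.5 (adjusted p = 5.51e-07). E10.5 exceeded E19.5 by 2.15 ± 0.22 (adjusted p = 2.83e-09). The highest stage mean was 8.32 at E11.5, and 8 of the 9 daily differences were downward. Its 5 probe sets were all called higher at E10.5 than in young adult, with differences from 2.07 to 5.93, the latter in the second probe set, whose young adult mean was 3.09. At E19.5 4 of the 5 were called, and the fourth was not (0.41, adjusted p = 0.252). Of the other SOXC genes, *Sox4* was higher at E10.5 than in young adult by 3.09 ± 0.22 and *Sox12* by 1.70 ± 0.21, and both were higher at E19.5.

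**Figure D4:**
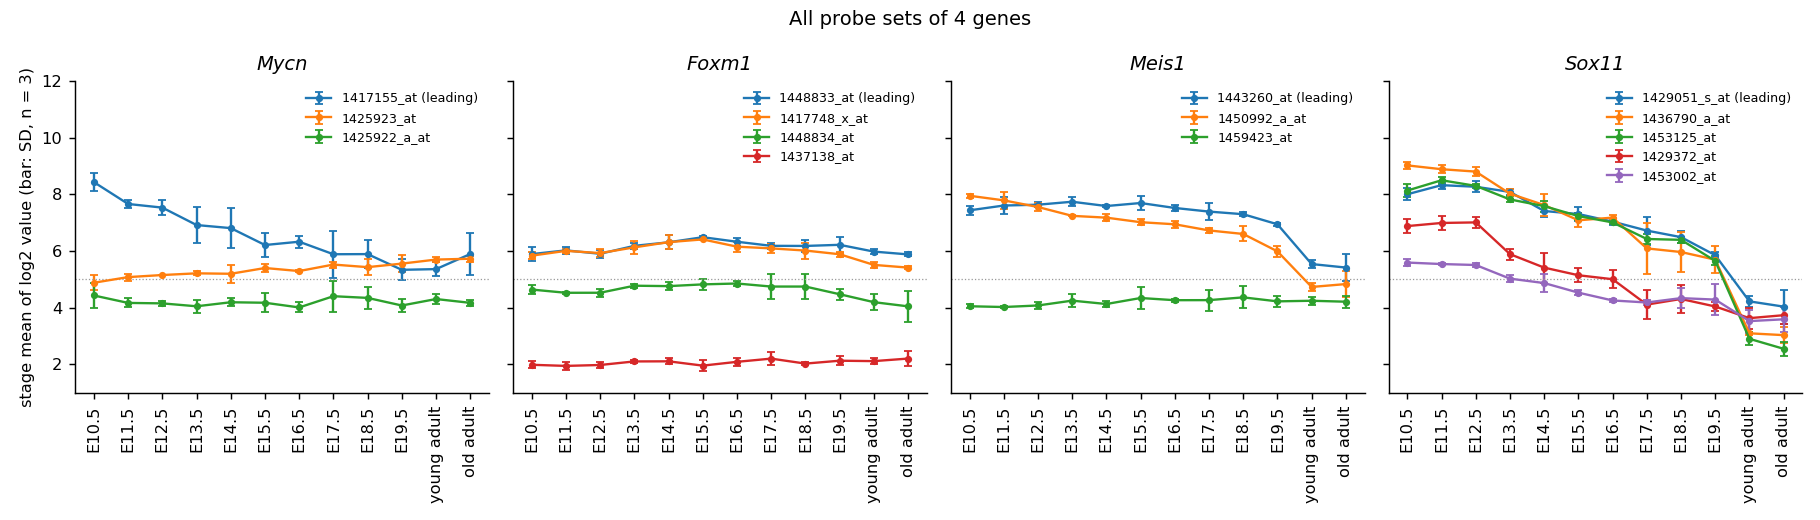
Stage mean of the log2 value (y axis; bars are SD, n = 3) by stage (x axis) for every probe set of *Mycn*, *Foxm1*, *Meis1* and *Sox11*, with the level of 5 dotted. The second *Mycn* probe set runs opposite to the leading one (r = -0.94), and the second *Meis1* probe set is already at 7.24 at E13.5, where the leading one has its highest mean.

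The comparison of old with young adult asked what changed with age in the mature heart. *Myc* and *E2f3* were called higher in old adult and none of the 10 genes was lower, beside 3.83% of all probe sets called higher and 3.13% lower (2.08% and 4.61% after centring). None passed the study's limits, which 0.00443% of all probe sets passed upward. The median of the 10 genes was -0.07. *Myc* read 6.20 (male), 5.59 (mixed) and 4.75 (female) in old adult and 4.98, 4.64 and 4.01 in young adult in the same order. The groups overlapped, and old exceeded young within each sex label, by 1.22, 0.95 and 0.75. The difference was 0.97 ± 0.26 (adjusted p = 0.0198).

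*E2f3* read 4.91, 4.56 and 4.51 in old adult and 4.15, 3.63 and 4.12 in young adult, with no overlap and all adult arrays below 5. The difference was 0.69 ± 0.22 (adjusted p = 0.0479). On the 6 adult arrays alone neither call remained (adjusted p = 0.268 for *Myc* and 0.199 for *E2f3*), nor with the sex label as a block (0.122 and 0.209) or the control level as a term (0.0893 and 0.367). Without the third young adult array or the first or second old adult array *Myc* was not called (adjusted p between 0.0574 and 0.173). Without the first or second young adult array or the first or second old adult array *E2f3* was not called (between 0.0593 and 0.209). *Mycn* differed by 0.53 (adjusted p = 0.406) and *Meis2* by 0.35 (adjusted p = 0.387).

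The target lists showed little with age. None of the 18 replication genes and none of the 16 mitosis genes was called in either direction in limma at an adjusted p under 0.05 (medians 0.08 and -0.18), and of the 16 MYC targets 1 was, *Rrs1* of ribosome assembly (0.59 ± 0.18, adjusted p = 0.039). Chosen after their values were seen, *Rb1*, the retinoblastoma pocket protein (0.79 ± 0.16, adjusted p = 0.00341), the CDK inhibitor *Cdkn1a* (0.95 ± 0.29, adjusted p = 0.0433) and *Tgif2* (0.46 ± 0.13, adjusted p = 0.0242) were the called genes of the other lists, all higher in old adult.

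**Figure D5:**
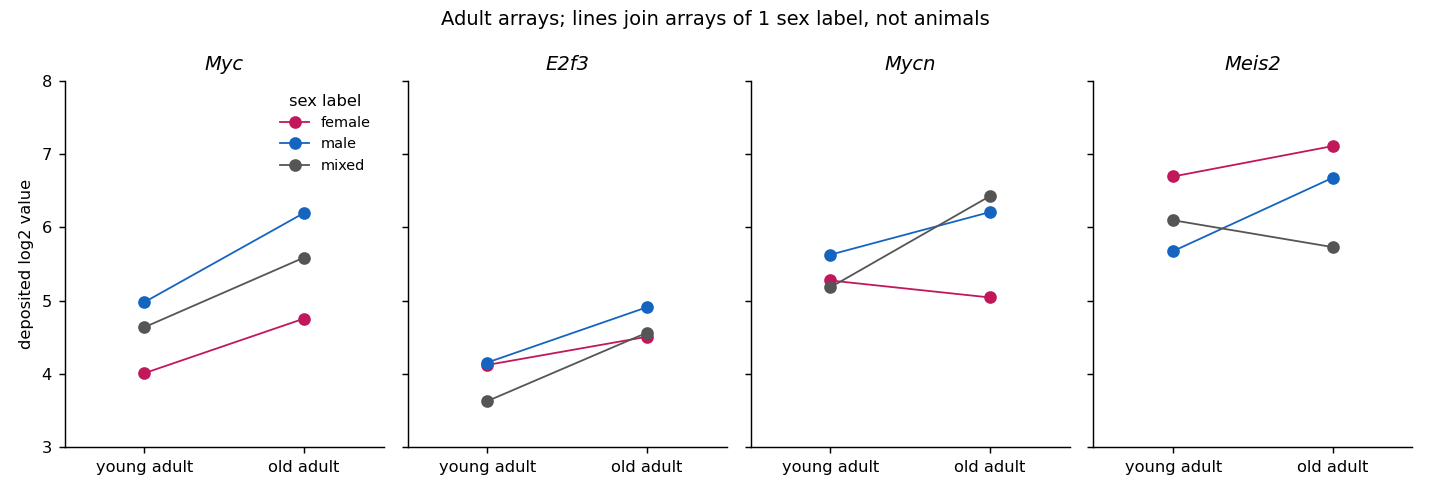
Deposited log2 value of the leading probe set (y axis) on the young and old adult arrays (x axis) for *Myc*, *E2f3*, *Mycn* and *Meis2*, coloured by sex label, with lines joining arrays of the same label that come from different animals. *Myc* and *E2f3* are higher in old adult for each label, while *Mycn* and *Meis2* are lower for 1 label each.

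Males and females were compared over 9 pairs of arrays, 1 for each stage beginning with E13.5,, in a fit that held each stage as a block. None of the 10 genes was called in limma, beside 0.0488% of all probe sets. Without adjustment 1 of the 10 had p under 0.05, beside 3518 of all 45101 probe sets. This was *E2f1*, with a male minus female difference of 0.19 ± 0.07 (adjusted p = 0.576 in limma) and the male array above the female one in 8 of the 9 pairs. *Meis1* differed by -0.20 ± 0.10 (adjusted p = 0.647) and was higher in males in 2 pairs.

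The genes closest in course to each regulator were read over the 12 stage means, among 4285 or 4286 other genes that had a stage mean above 5 and an SD of stage means above 0.5. Both courses of a pair come from the same arrays, and no test was made, so these values are descriptions. *Mycn* was closest to *Nudcd1* (r = 0.992), to *Ahsa1*, an activator of HSP90 (0.988), and to *Pcna*, the sliding clamp of DNA replication (0.988). *E2f8* was closest to *Sgol2a*, a protector of centromere cohesion (0.996), the DNA junction nuclease *Gen1* (0.996) and *Fignl1* (0.995). *E2f3* was closest to the proteasome subunit *Psmc6* (0.998), *Casp8ap2* (0.998) and the Hippo pathway factor *Tead1* (0.997). *Mybl2* was closest to *Cenpq* of the kinetochore (0.949), the replication gene *Gins2* (0.943) and *Nudt5* (0.934).

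Genes close to *Meis1* included *Slc38a1* (0.997) and *Sulf2* (0.995). *Meis2* was closest to *Myh10*, non-muscle myosin heavy chain (0.993), *Igsf3* (0.992) and the ephrin receptor *Epha7* (0.990). *Sox11* was closest to *Eml4* (0.996), *Myh10* (0.993) and *Rnf26* (0.993), and its course correlated with that of *Meis2* at 0.988. The nearest genes to *Myc* were less close, with *Zfp948* (0.853), *Mir17hg*, the host of a microRNA cluster that MYC is known to activate (0.849), and *Zdhhc21* (0.830). *E2f1* was closest to *Ccdc69* (0.975), *Cox20* (0.971) and *Aldh1b1* (0.968). *Foxm1* was closest to *Mss51* (0.923), *Ccni* (0.919) and *2810403D21Rik* (0.911), and it correlated with *Mycn* at -0.348 and with *Mybl2* at -0.346.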

How the data were processed

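Hearts of OF1 mice at 12 stages were hybridized to 36 1-colour Affymetrix Mouse430 2.0 arrays. The deposited values are log2 intensities that the authors made by robust multi-array average (background correction, quantile normalization, probe summary). The submitters' processing notes name Affymetrix Expression Console and Partek 6.6. Array medians lay between 4.00 and 4.20, and 3 arrays per stage limit the precision. Where arrays did not come from separate animals, p-values measure only the spread between these arrays.

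Values were used as deposited. Where the letters "na" had been replaced by a hyphen or a symbol turned into a number or date, the symbol of 579 probe sets was restored through the gene ID, and 18342 of 20701 gene IDs were found in RefSeq (GRCm38.p6). *Myh6*, a cardiomyocyte marker, had no probe set under its symbol. Fits used limma 3.58.1 in R 4.3.3 with 12 stage means on all arrays and probe sets (6.96 prior degrees of freedom), and p-values were adjusted by Benjamini-Hochberg, comparison by comparison. The study's limits were applied after the test. Male and female arrays were compared with stage as a block, without E12.5 as in the methods. The procedure was tested on simulated data with independent noise and a small share of probe sets shifted. Shifts of whole arrays, such as those of the control level, were not simulated.

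The members and lists were chosen with earlier results of these data known. Named from each list are the 3 genes with the largest called difference between E10.5 and young adult and the one with the largest difference of the other sign; from the course of each member, the 3 genes with the highest Pearson r. Some genes that the rule names are not reported here, and genes named beyond it were chosen after their values were seen. Alternatives concerned the filter, normalization, centring, sex and control level as terms, the arrays in the fit, the probe set and leaving out arrays.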

Additional observations from a re-analysis of the deposited data

How the results depend on the processing

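Over all alternatives, 552 differences of the 10 genes were recomputed. Of these, 477 kept their direction and their side of the threshold, 40 lost the call, 9 gained one and 26 changed sign. Some of the 477 could not change. For *Myc*, *Mycn*, *E2f1*, *E2f3*, *E2f8* and *Mybl2* the probe set of largest SD was the leading one, so that alternative repeated the main fit. Signal over background limits the 9 probe sets below 5, and 3 arrays per stage limit every call.

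With the hybridization control level as a term, 3 genes passed the study's limits between E10.5 and young adult, 0 between E19.5 and young adult, 1 between E10.5 and E19.5, and 0 were called between old and young adult. Centring gave 1, 1 and 1 for the last 3 of these counts and 0 daily calls. A further quantile normalization gave 1 gene past the limits between E10.5 and E19.5 and 0 daily calls. Fits on only the arrays compared gave 0 for the study's limits between E19.5 and young adult and between E10.5 and E19.5, 0 calls with age and 0 daily calls. With the sex label as a block 0 were called with age. Leaving out 1 array in turn gave 1 to 2 genes past the limits between E19.5 and young adult, 0 to 2 calls with age and 0 to 1 daily calls. The cause of these shifts was not tested, other than fewer arrays where the fit held fewer.

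Differences changed sign as follows. With the control level as a term, *Foxm1* was 0.60 between E10.5 and young adult and 0.050 between E10.5 and E19.5, *E2f1* 0.28 between E10.5 and E19.5 and *Mybl2* 0.16 between E19.5 and young adult. With age, *Mycn* was -0.28, *E2f1* 0.12 and *Foxm1* 0.15 in that fit. Centring gave -0.068 for *E2f1* between E10.5 and young adult and -0.19 for *Myc* between E10.5 and E19.5, which was -0.0035 under a further quantile normalization. The probe set of largest SD gave 0.44 and 0.16 for *Foxm1* in the comparisons of E10.5 with young adult and with E19.5, and 0.10 for *Meis1* and -0.15 for *Meis2* with age. With E11.5 in place of E10.5, chosen after seeing the data, *Foxm1* was 0.043 against young adult. Leaving out 1 array in turn, *Foxm1* ranged from -0.22 to 0.022 between E10.5 and young adult, *Mycn* from -0.16 to 0.18 between E19.5 and young adult, and *E2f1* from -0.15 to 0.10 between E10.5 and E19.5. With age, *E2f1* ranged from -0.19 to 0.022, *E2f8* from -0.44 to 0.25, *Meis1* from -0.36 to 0.10 and *Sox11* from -0.48 to 0.12. None of these was called in the fit of all arrays, except *E2f1* between E10.5 and young adult.

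E10.5 and E11.5 share replicate numbers, but same-numbered arrays did not deviate together (r = 0.222, -0.254 and 0.167), so the numbers were not taken to pair them. With the replicate number as a block 0 of the 10 genes were called at that step, and 126 probe sets, against 205 on the same 6 arrays without the block and 1140 with all arrays.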
